A study of Homo sapiens with 15 samples.

Results

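Glycolysis and glucose uptake were described here through 32 genes, chosen by symbol for their place in the pathway and found through the gene identifiers of the deposited count tables, where they made up 32 of 57500 gene rows. They are glucose transporters, the enzymes from hexokinase to lactate dehydrogenase, the regulators of phosphofructokinase and of pyruvate dehydrogenase, a gene of the glycogen branch and the lactate transporters. RNA was sequenced from K562, an established human leukaemia line of myeloid origin that the labels class as lymphoblasts, in 5 groups of 3 libraries, all at 1 h. The control libraries are labelled with the genotype WT and the treatment NT, although DMSO is the control in the series text. The other 4 groups carried Cas9FCPF by transfection, without or with sgRNA, and received 1 µM of JQ1 or 1 µM of JQ1-FCPF. JQ1 is an inhibitor of the BET bromodomain proteins, which read acetylated histones, and JQ1-FCPF is the compound that shares the name of the FCPF tag on the transfected Cas9. The series title has dCas9, a form that does not cut DNA, and the target of the sgRNA is not named by the labels. Nothing states that control cells were transfected, so every comparison with the control takes transfection, Cas9FCPF and compound together. Nothing says that replicates were separate cultures, and the p-values then measure this between-sample spread alone, possibly a technical one.

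Glycolysis turns glucose into pyruvate in the cytosol and yields ATP and NADH. Cells take up glucose through SLC2A transporters, trap it as glucose 6-phosphate by hexokinase, and commit it at phosphofructokinase, whose activator is set by the PFKFB enzymes. Pyruvate is either reduced to lactate by lactate dehydrogenase and exported by SLC16A transporters, or it enters mitochondria and is oxidised by pyruvate dehydrogenase, which the PDK kinases switch off. Many genes of the pathway are known targets of MYC and of the hypoxia factor HIF1A, and leukaemia lines in culture are known for a high glycolytic rate.

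Libraries held 12625669 to 17544518 counts. The 11 markers of K562 cells, among them the fetal globin genes and GATA1, were counted in every library and summed to 1640 to 2390 CPM (counts scaled to library size). Fibroblast markers summed to 1.65 to 6.67 CPM, B cell markers to 3.24 to 6.19 CPM, and T and NK cell markers to 19.4 to 34.1 CPM, whereas the epithelial list, through KRT8 and KRT18, summed to 737 to 1290 CPM. Among the fibroblast markers COL1A1 went from 1.96 ± 0.0479 CPM with JQ1-FCPF without sgRNA to 4.86 ± 1.11 CPM with JQ1-FCPF and sgRNA (SD, n = 3; edgeR adjusted p = 0.00165), and it was also called higher with JQ1 and sgRNA than in the control (2.22 ± 0.843 and 3.68 ± 0.281 CPM, edgeR adjusted p = 0.0431). Of the 11 K562 markers 2 were called lower for the sgRNA under JQ1-FCPF, where 6.25% of all tested genes were called. Against the control 3 were called lower for JQ1-FCPF with sgRNA (7.21% of all genes), 2 higher and 2 lower for JQ1 with sgRNA (14.2%), and 2 higher and 1 lower for JQ1 without sgRNA (12.3%). For JQ1-FCPF against JQ1, 1 was called lower without sgRNA (7.8%) and 1 with it (2.95%). The part of these markers in the results was not tested. A pair of libraries stood apart. In JQ1 with sgRNA replicate 1, 12 of the 31 tested members had their lowest level of all libraries, the median log2 ratio of the members to the other libraries of the group was -0.17 against -0.01 over all genes, and mitochondrially encoded genes took 7.46% of counts, where the other libraries had 2.31% to 5.98%. In that library 23 of 31 members lay below the other libraries of its group, and 23 of 31 also did in control replicate 1, JQ1 without sgRNA replicate 3 and JQ1-FCPF without sgRNA replicate 2, with medians of -0.10, -0.06 and -0.13. JQ1-FCPF with sgRNA replicate 2 held the highest level of 6 members, HK2, PFKM, PFKFB3, PFKFB4, PDK3 and PDHB. Such a number was not its alone, since control replicate 2 was highest for 6 members and JQ1-FCPF without sgRNA replicate 2 lowest for 6. Over all genes, the chi-square per degree of freedom between replicates was 46.3 and 49.4 for the pairs with JQ1 with sgRNA replicate 1, 23.8 and 24.2 for those with JQ1-FCPF with sgRNA replicate 2, and 19.9 and 19.5 for those with JQ1-FCPF without sgRNA replicate 1, where the remaining pairs had 2.96 to 16.2. Calls are by edgeR with all 15 libraries unless another fit is named. A value of a member that moved by over 1.5 times without one of the first 2 of these libraries is given both ways.

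Taken per kilobase of exon, GAPDH, the dehydrogenase in the middle of the pathway, was the most abundant member at a median of 884 CPM per kb over the 15 libraries. ENO1, the main enolase, followed at 738, ALDOA, the main aldolase, at 348, and LDHB, a lactate dehydrogenase subunit, at 298.6 CPM per kb. These 4 genes lay above at least 99.1% of the 15517 tested genes. Not divided by length, ENO1 came before GAPDH, with medians of 2921 and 2635 CPM. The fewest counts, not divided by length, were those of PDK2, a pyruvate dehydrogenase kinase, with 5 to 17 counts per library, SLC16A3 with 46 to 75 and PDK3 with 51 to 98. PGM1, which links glycolysis to glycogen, had no count in 13 libraries, which allows up to 0.175 to 0.238 CPM (3 counts, counting error only), and 1 and 2 counts in the others, so that it was not tested and 31 of 32 members passed the filter on low counts. PGM2, its relative outside the members, stood at 43.6 to 52.0 CPM as group means. The members together took 1.148% to 1.501% of all counts.

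**Figure D1:**
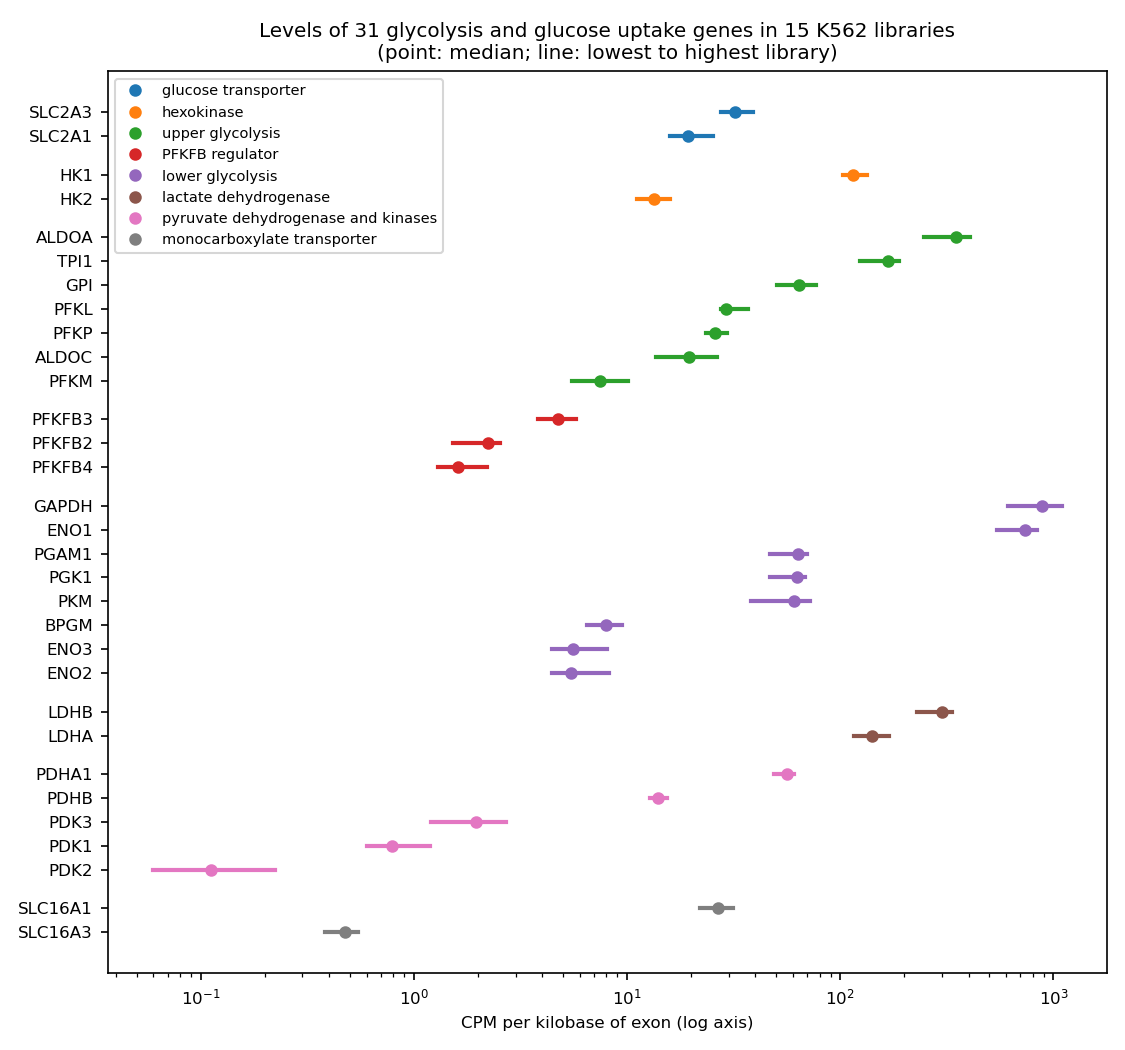
Levels of the 31 tested genes in CPM per kilobase of exon on a log axis, grouped by role, with a point for the median and a line from the lowest to the highest of 15 libraries. GAPDH lies at a median of 884 and PDK2 at 0.112 CPM per kb, with ENO1 at 738 between them as the second most abundant.

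In most families 1 isozyme gave the bulk of the counts per kilobase. ENO1 gave 98.4% ± 0.335 of the enolase counts (SD over 15 libraries), with 0.786% each for ENO2, the neuronal form, and ENO3, the muscle form. SLC16A1 gave 98.2% of both lactate transporters, ALDOA 94.6% of both aldolases, and HK1 89.6% of both hexokinases. Phosphofructokinase was mixed, with 47.4% from PFKL, the liver form, 41.0% from PFKP, the platelet form, and 11.6% from PFKM, the muscle form. The subunits of lactate dehydrogenase were at 67.0% for LDHB and 33.0% for LDHA, and the glucose transporters at 62.4% for SLC2A3 and 37.6% for SLC2A1. The kinases were at 67.4% for PDK3, 28.8% for PDK1 and 3.71% for PDK2. These shares depend on the exon length given for the whole gene, not for the transcripts in use. It was 6210 bases for LDHA and 2983 for LDHB, and 14883 for PDK1 and 2695 for PDK3. Not divided by length, the medians over 15 libraries were 876.8 CPM for LDHA and 890.8 for LDHB, and 11.7 for PDK1 and 5.28 for PDK3. Near-identical copies could take reads from 14 members. Of their 111 annotated numbered pseudogenes, 68 had any count, and the sum per library was at most 2.55% of the parent, for PGAM1, and at most 0.164% for GAPDH. How reads that match several places were counted is not given, so these shares do not bound the reads lost by a parent. Copies with other kinds of names were not searched.

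The glucose transporters came first in the path. SLC2A1, the GLUT1 transporter found in most tissues (ENSG00000117394, GRCh38 chromosome 1, positions 42925375 to 42959173), stood at 110.8, 100.1 and 124.3 CPM in control cells, 88.0, 97.7 and 91.9 under JQ1 without sgRNA, 78.7, 81.9 and 90.1 under JQ1 plus sgRNA, 113, 83.7 and 102 with JQ1-FCPF without sgRNA, and 95.01, 86.8 and 105 with JQ1-FCPF and sgRNA. All 6 libraries with JQ1 lay below the 3 control libraries, while those with JQ1-FCPF overlapped them. With JQ1 and sgRNA SLC2A1 fell 1.34-fold against the control (log2 fold change -0.42 ± 0.11, here and below with its SE; edgeR adjusted p = 0.0179). The adjusted p was 0.107 without control replicate 3 and 0.0512 without JQ1 with sgRNA replicate 2, in a range of 0.00522 to 0.107 over 21 alternatives. With JQ1 without sgRNA the log2 fold change was -0.27 with a 95% interval of -0.51 to -0.04 (edgeR adjusted p = 0.115). In bulk RNA a smaller share of cells with a transcript and less of it per cell cannot be told apart.

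SLC2A3, the high-affinity GLUT3 transporter, stood at 207, 194 and 238 CPM in control cells, 197, 199 and 196 under JQ1 without sgRNA, 202, 202 and 198 under JQ1 plus sgRNA, 241, 201 and 193 with JQ1-FCPF without sgRNA, and 173, 169 and 189 with JQ1-FCPF and sgRNA. The 3 libraries of JQ1-FCPF with sgRNA were the lowest of all 15. The difference from JQ1-FCPF without sgRNA did not pass (-0.26 on the log2 scale with bounds of -0.47 and -0.05 at 95%, edgeR adjusted p = 0.132), and neither did the difference from the control (-0.27, edgeR adjusted p = 0.115).

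The hexokinases, which phosphorylate glucose, gave no call in the 9 comparisons. HK1 had group means of 681 to 734 CPM and HK2 of 76.0 to 89.2 CPM, and the sgRNA effect on HK2 under JQ1-FCPF was 0.23 on the log2 scale (edgeR adjusted p = 0.193). GPI, which converts glucose 6-phosphate to fructose 6-phosphate, lay between 549 and 639 CPM as group means, and it also gave no call.

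Phosphofructokinase is the step that commits sugar to glycolysis. PFKM (ENSG00000152556, chromosome 12, positions 48105139 to 48146404) stood at 44.7, 48.6 and 43.2 CPM in control cells, 58.7, 57.1 and 55.4 under JQ1 without sgRNA, 63.3, 61.9 and 69.6 under JQ1 plus sgRNA, 48.0, 40.0 and 43.8 with JQ1-FCPF without sgRNA, and 48.7, 73.6 and 54.2 with JQ1-FCPF and sgRNA. The 6 JQ1 libraries lay above all control libraries, and those of JQ1-FCPF without sgRNA fell within or just below the control range. PFKM rose 1.43-fold with JQ1 and sgRNA against the control (log2 fold change 0.51 ± 0.12; edgeR adjusted p = 0.00911), with an adjusted p of 0.0516 without control replicate 3. Against the same control JQ1 without sgRNA gave a log2 difference of 0.33 (95% interval 0.07 to 0.58, edgeR adjusted p = 0.0821). With sgRNA under JQ1-FCPF PFKM rose 1.34-fold (log2 fold change 0.42 ± 0.12; edgeR adjusted p = 0.0432).

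That last call was close to the threshold and rested largely on replicate 2 with sgRNA. Without it the log2 fold change was 0.23 and the adjusted p 0.199, without both libraries that stood apart it was 0.23 with an adjusted p of 0.121, and over 21 alternatives the call was lost in 13, with adjusted p between 0.0144 and 0.199. It was lost without JQ1-FCPF without sgRNA replicate 2 (0.196) or 3 (0.139), without any 1 of the 3 control libraries (0.053 to 0.0569) or of the 3 libraries of JQ1 without sgRNA (0.054 to 0.0591), and without JQ1 with sgRNA replicate 2 (0.0502). Exons of PFKM share 628 bases with those of SENP1 on the opposite strand, and the sources used here do not say whether counting used strand. The share of PFKM in phosphofructokinase counts per kilobase was 9.73% to 10.4% in the control, 12.3% to 13.5% with JQ1 without sgRNA and 12.9% to 13.8% with JQ1 and sgRNA. Under JQ1-FCPF it was 9.07% to 10.5% without sgRNA and 10.9% to 14.2% with it.

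The other phosphofructokinase genes gave no call. PFKL had group means of 253.5 to 297.8 CPM, the highest with JQ1 and sgRNA, where all 3 libraries lay above those without sgRNA (0.23 on the log2 scale with bounds of 0.04 and 0.43 at 95%, edgeR adjusted p = 0.596). PFKP stayed between 121 and 130 CPM as group means. The PFKFB enzymes make and remove fructose 2,6-bisphosphate, which activates phosphofructokinase. PFKFB4 stood at 12.3, 12.4 and 12.0 CPM with JQ1 and sgRNA against 8.71, 11 and 8.64 without sgRNA (log2 fold change 0.37, edgeR adjusted p = 0.603), and PFKFB2 and PFKFB3 had group means of 19.98 to 23.5 and 23.9 to 27.6 CPM.

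Aldolase splits fructose 1,6-bisphosphate into both triose phosphates, and the minor form ALDOC (ENSG00000109107, chromosome 17, positions 28573115 to 28577264, minus strand) gave the most calls of any member. It stood at 42.1, 48.7 and 44.7 CPM in control cells, 68.7, 73.7 and 64.5 under JQ1 without sgRNA, 57.1, 72.5 and 77.4 under JQ1 plus sgRNA, 45.4, 40.1 and 40.3 with JQ1-FCPF without sgRNA, and 47.4, 73.6 and 57.3 with JQ1-FCPF and sgRNA. All 6 JQ1 libraries were above the control and above JQ1-FCPF without sgRNA, whereas JQ1-FCPF with sgRNA spread from the control level to the JQ1 level. ALDOC rose 1.53-fold against the control with JQ1 without sgRNA (log2 fold change 0.61 ± 0.13; edgeR adjusted p = 0.00701) and equally 1.53-fold where sgRNA was added (0.61 ± 0.13; edgeR adjusted p = 0.00613). Both calls held in 21 of 21 alternatives, with adjusted p of at most 0.0412 and 0.0349.

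With sgRNA under JQ1-FCPF ALDOC rose 1.42-fold (log2 fold change 0.50 ± 0.14; edgeR adjusted p = 0.0292). Without replicate 2 with sgRNA the log2 fold change was 0.33 and the adjusted p 0.124. The adjusted p was 0.12 and 0.122 without replicates 2 and 3 without sgRNA, and 0.114 in a fit of these groups alone. Without both libraries that stood apart it was 0.0281, with a log2 fold change of 0.33. Its adjusted p lay between 0.00262 and 0.124 over 21 alternatives. Under JQ1 the sgRNA left ALDOC at 69 ± 10.6 against 68.96 ± 4.63 CPM, and the difference between both sgRNA effects was 0.50 on the log2 scale (95% interval 0.11 to 0.89, edgeR adjusted p = 0.233).

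**Figure D2:**
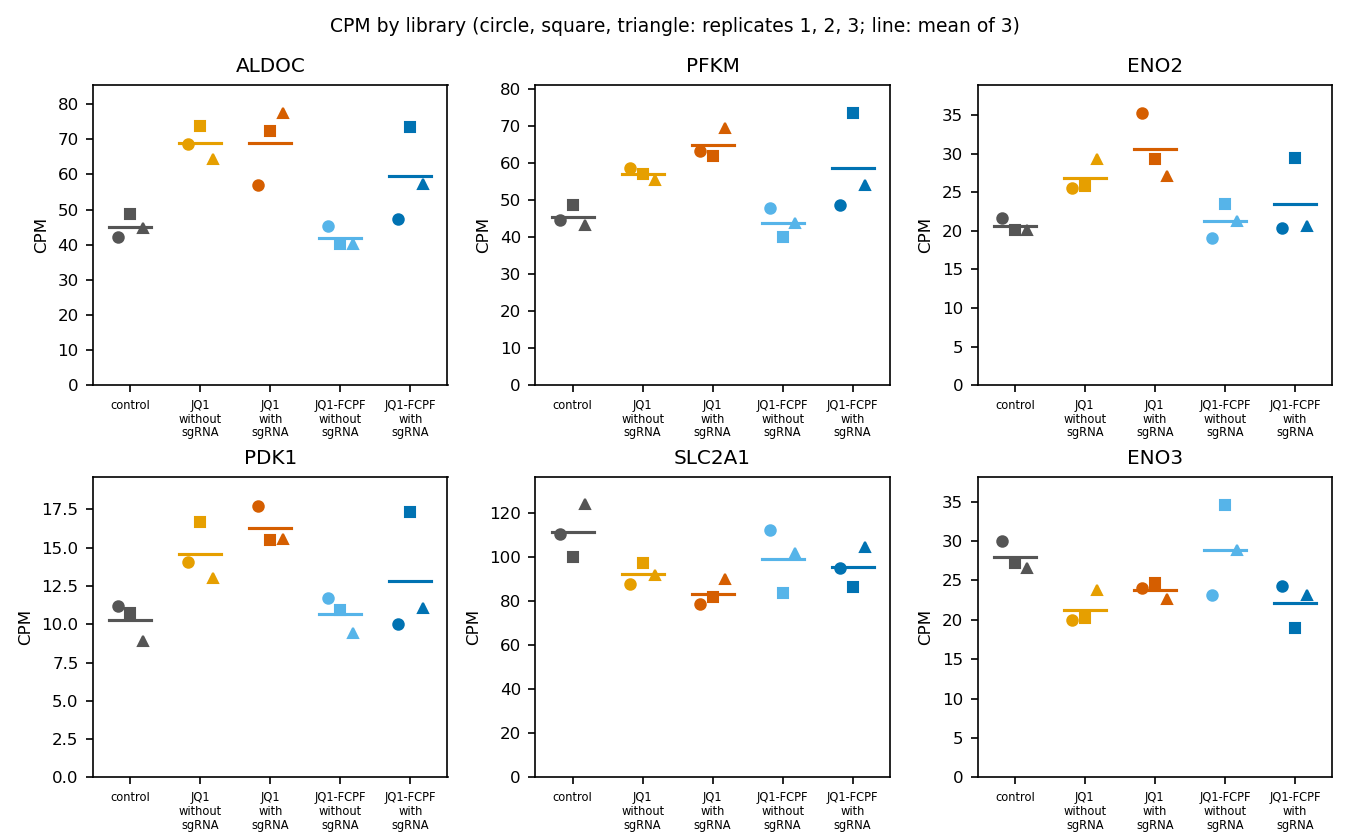
Levels in CPM, from 0, of the 6 members called in at least 1 comparison, by group, with a symbol per replicate and a line at the mean of 3. ALDOC, PFKM, ENO2 and PDK1 lie higher in the JQ1 groups than in the control and in JQ1-FCPF without sgRNA, SLC2A1 lies lower in the JQ1 groups, and the square of JQ1-FCPF with sgRNA (replicate 2) is the highest of its group for the first 4.

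Promoter sequence was read for the members called with JQ1 and sgRNA against the control. It came from RefSeq windows of 300 bases on GRCh38.p14 (250 before and 50 after each start), which hold 60 windows for 29 of the 32 members. Searched letters were CACGTG, the E-box that MYC and related factors are known to bind, and ACGTG and GCGTG, the core letters of sites known to bind HIF, on both strands. Each CACGTG also counts as ACGTG on each strand. The stretches below hold these matches, in capitals, in ALDOC, PDK1 and ENO2, which were called higher with JQ1 and sgRNA. Of these, only ALDOC was also called with JQ1 without sgRNA. The stretches are written in the direction of the gene with positions counted back from the transcript start.
ALDOC -248 to -219, chr17:28577114-28577143: gtgcccggCACGTGgtaaagggattgtggc
ALDOC -116 to -87, chr17:28576982-28577011: ctctgaggGCGTGgtcttgccccggacacc
ALDOC -53 to -24, chr17:28576919-28576948: atgcaggcCACGCccccggaggagtCACGT
PDK1 -30 to -1, chr2:172556060-172556089: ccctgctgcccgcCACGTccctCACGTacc
ENO2 -126 to -97, chr12:6914454-6914483: gcgctcgtACGTGcgcctccgccggcagct

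PFKM, also called higher with JQ1 and sgRNA, has 7 windows and held CACGT, which is ACGTG on the other strand, in 2 of them. Both matches are at 1 genome position, chr12:48105359-48105363, which lies 122 bases before one of its starts and is base 7 of the transcript from another, so no stretch is printed. The other 5 windows of PFKM held none of the motifs. Of the 3 genes printed, ALDOC held the full E-box in its window, while PDK1, in the second of its 2 windows, and ENO2 held the 5-letter ACGTG without it. CACGTG was found in 8 of 60 member windows (13.3%) against 7.26% of 35116 windows in the table, and by gene in 8 of 29 members (27.6%) against 8.77% of 27305 genes. The 8 were ALDOA, ALDOC, GAPDH, HK2, LDHA, PDHB, PDK2 and PFKFB3, and of these ALDOC was the 1 member called in any comparison. ACGTG was found in 38.3% of member windows against 21.4% of all, and GCGTG in 41.7% against 36.5%. The single window of SLC2A1, the member that fell, held GCGTG and neither of the other motifs. These are matches of letters, not sites, and base composition was not taken into account. By gene, a match in any window counts, and the members had 60 windows for 29 genes where the table had 35116 for 27305. The number of windows per gene and their overlap were not taken into account either.

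The remaining enzymes from aldolase to the mutase were mostly abundant and gave no call. ALDOA had group means of 1985 to 2235 CPM, TPI1, which interconverts the triose phosphates, of 423 to 469, PGK1, the first ATP-forming step, of 297 to 350, and PGAM1, the mutase, of 145 to 167. GAPDH stood at 2635, 3253 and 2795 CPM in control cells and 2530, 2463 and 2441 with JQ1 without sgRNA, without overlap. It then stood at 1831, 2563 and 2426 with JQ1 and sgRNA, 2655, 2834 and 2953 with JQ1-FCPF without sgRNA, and 2952, 2160 and 3180 with JQ1-FCPF and sgRNA. For JQ1 with sgRNA against the control the difference was -0.35 on the log2 scale (95% interval -0.65 to -0.04, edgeR adjusted p = 0.114), and without JQ1 with sgRNA replicate 1 it was -0.22 (edgeR adjusted p = 0.301). With no filter on low counts GAPDH was called lower for JQ1 with sgRNA against the control. For JQ1 without sgRNA the difference was -0.22 (edgeR adjusted p = 0.333). BPGM, which makes the 2,3-bisphosphoglycerate of red cells, had group means of 18.8 to 22.6 CPM.

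PKM, a pyruvate kinase gene, stood at 535, 589 and 583 CPM in control cells, 469, 465 and 426.5 under JQ1 without sgRNA, 326, 502 and 526 under JQ1 plus sgRNA, 567, 496 and 521 with JQ1-FCPF without sgRNA, and 543, 384 and 615 with JQ1-FCPF and sgRNA. All JQ1 libraries lay below the control, with log2 fold changes of -0.33 without sgRNA (edgeR adjusted p = 0.176) and -0.34 with it (edgeR adjusted p = 0.155), neither of which passed. Without JQ1 with sgRNA replicate 1 the latter was -0.15 (edgeR adjusted p = 0.501). In other fits PKM was called lower for JQ1 without sgRNA against the control. These were with no filter on low counts, with only the groups compared, and without both libraries that stood apart. With no filter PKM was also called lower for JQ1 with sgRNA against the control. JQ1 with sgRNA replicate 1 and JQ1-FCPF with sgRNA replicate 2, the libraries that stood apart, were the lowest of all for PKM. PKLR, a pyruvate kinase gene outside the members, stood at 84.3 ± 9.08 CPM in control cells.

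**Figure D3:**
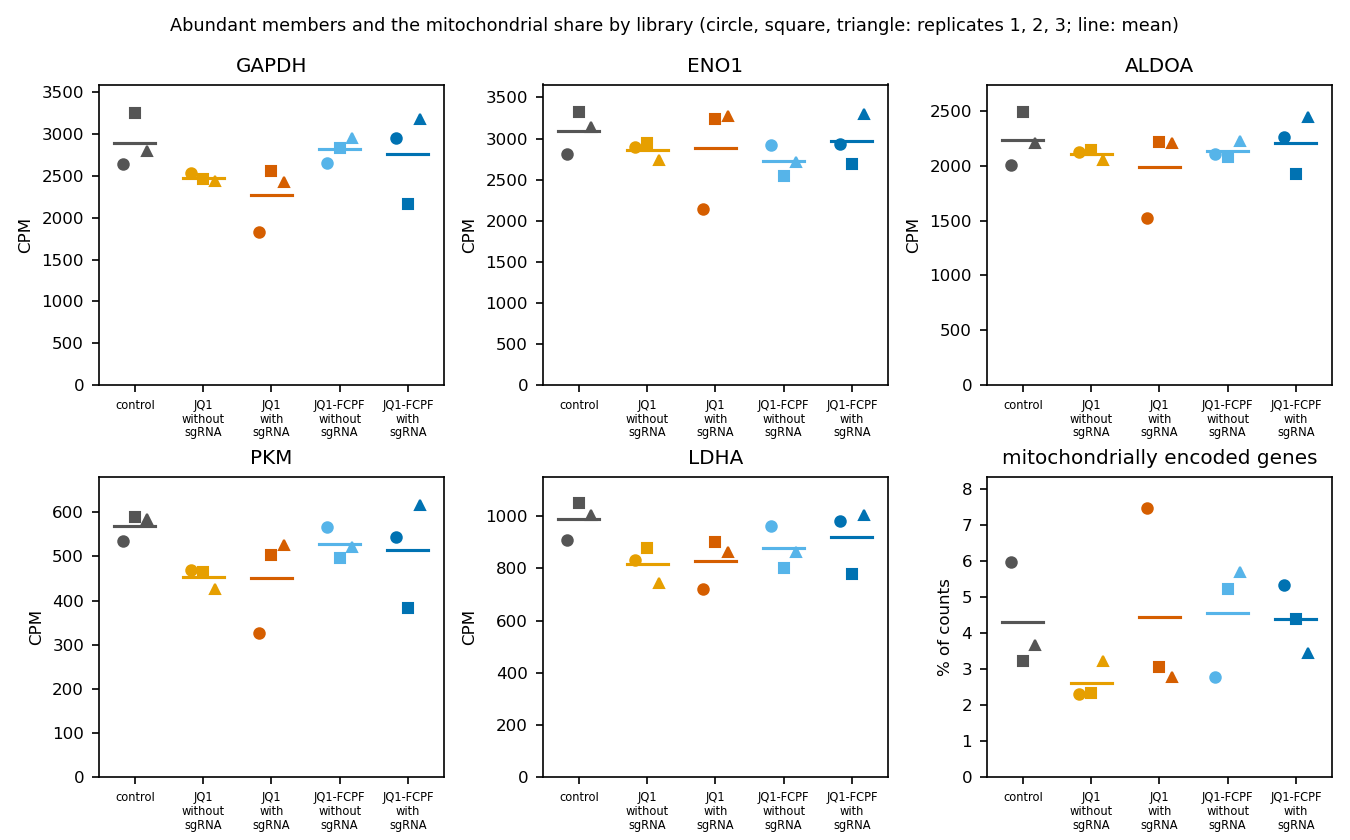
Levels in CPM, from 0, of 5 abundant members and, in the last panel, the percent of counts from mitochondrially encoded genes, by group, with a symbol per replicate and a line at the mean of 3. JQ1 with sgRNA replicate 1 is the lowest of all points in each of the 5 gene panels and has the highest mitochondrial share at 7.46%.

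Enolase makes phosphoenolpyruvate. ENO1 gave no call, with group means of 2727 to 3097 CPM. ENO2 (ENSG00000111674, chromosome 12, positions 6913745 to 6923698) stood at 21.6, 20.2 and 20.1 CPM in control cells, 25.5, 25.8 and 29.3 under JQ1 without sgRNA, 35.3, 29.3 and 27.1 under JQ1 plus sgRNA, 19.0, 23.4 and 21.2 with JQ1-FCPF without sgRNA, and 20.3, 29.4 and 20.6 with JQ1-FCPF and sgRNA. The 6 JQ1 libraries lay above all control libraries. ENO2 rose 1.48-fold with JQ1 and sgRNA against the control (log2 fold change 0.57 ± 0.14; edgeR adjusted p = 0.0104), with an adjusted p of 0.0544 without control replicate 3, and under JQ1 without sgRNA the difference was 0.38 on the log2 scale (edgeR adjusted p = 0.0752).

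ENO3 went the other way in level. It stood at 30.04, 27.2 and 26.6 CPM in control cells, 19.9, 20.2 and 23.8 under JQ1 without sgRNA, 24.0, 24.7 and 22.6 under JQ1 plus sgRNA, 23.2, 34.6 and 28.9 with JQ1-FCPF without sgRNA, and 24.3, 19.0 and 23.2 with JQ1-FCPF and sgRNA. All JQ1 libraries lay below the control, but the log2 fold changes of -0.39 without sgRNA (edgeR adjusted p = 0.0582) and -0.23 with it (edgeR adjusted p = 0.245) did not pass. By DESeq2, with no filter on low counts and with only the groups compared, ENO3 was called lower for JQ1 without sgRNA against the control. The same held without JQ1-FCPF without sgRNA replicate 1 or 2, without JQ1-FCPF with sgRNA replicate 2, and without both libraries that stood apart. ENO3 was higher with JQ1-FCPF than with JQ1, both without sgRNA (log2 fold change 0.44 ± 0.13; edgeR adjusted p = 0.0477), although the groups overlapped. That call was lost in 11 of 21 alternatives, among them without JQ1-FCPF without sgRNA replicate 2, the highest library, where the log2 fold change was 0.29 and the adjusted p 0.247. Leaving out 1 library ended it in 10 of the 11, the others being without replicate 3 of that group (0.135), without each library of JQ1 without sgRNA (0.0659 to 0.172), without each control library (0.0568 to 0.0666), and without JQ1 with sgRNA replicates 2 and 3 (0.0548 and 0.0542). Exons of ENO3 share 111 bases with the opposite strand of PFN1, which had 16651 to 28946 counts.

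Neither lactate dehydrogenase subunit was called by edgeR with all 15 libraries in the fit. LDHB was called lower for JQ1-FCPF against JQ1 without sgRNA by DESeq2, by edgeR in a fit of those groups alone, and by edgeR without the libraries that stood apart. In these last kinds of fit LDHA was called lower for JQ1 without sgRNA against the control. LDHA, the form that favours lactate, had means of 987 ± 71.6 CPM in control cells, 818 ± 67.2 and 829 ± 93.9 with JQ1 without and with sgRNA, and 876.5 ± 80.7 and 920.5 ± 125 with JQ1-FCPF without and with it. LDHB had 833 ± 52.1, 916 ± 67.9, 929 ± 82.7, 759 ± 76.7 and 901 ± 11.9 CPM in the same order. As a share of lactate dehydrogenase counts per kilobase, LDHA took 35.4%, 36.1% and 37.3% in the control, 30.2%, 30.1% and 29.8% with JQ1 without sgRNA, 29.3%, 30.3% and 30.2% with JQ1 and sgRNA, and 35.6%, 36.1% and 35.5% with JQ1-FCPF without sgRNA. With JQ1-FCPF and sgRNA the share was 34.1% and 34.9% in replicates 1 and 3 and 29.5% in replicate 2. The 6 JQ1 libraries lay within a range of 1 percentage point, below the control and below JQ1-FCPF without sgRNA, and the share has no test here. Against the control the log2 fold changes under JQ1 without sgRNA were -0.27 for LDHA (edgeR adjusted p = 0.15) and 0.14 for LDHB.

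Pyruvate dehydrogenase and its kinases decide the mitochondrial use of pyruvate. PDK1 (ENSG00000152256, chromosome 2, positions 172555373 to 172608669) stood at 11.2, 10.7 and 8.92 CPM in control cells, 14.04, 16.7 and 13.0 under JQ1 without sgRNA, 17.7, 15.5 and 15.5 under JQ1 plus sgRNA, 11.7, 10.9 and 9.46 with JQ1-FCPF without sgRNA, and 10.0, 17.3 and 11.1 with JQ1-FCPF and sgRNA. The 6 JQ1 libraries lay above every control library and above JQ1-FCPF without sgRNA. PDK1 rose 1.59-fold with JQ1 and sgRNA against the control (log2 fold change 0.67 ± 0.17; edgeR adjusted p = 0.0133), with an adjusted p of 0.0825 without control replicate 3, and with JQ1 without sgRNA the log2 fold change was 0.51 (edgeR adjusted p = 0.0557). PDK1 was called higher for JQ1 without sgRNA by DESeq2, with no filter, with the title letter as a replicate block and with only the groups compared. It was also called without both libraries that stood apart, without JQ1 with sgRNA replicate 1, and without JQ1-FCPF with sgRNA replicate 1 or 2. Exons of PDK1 share 445 bases with its antisense gene PDK1-AS1, which had 0 to 10 counts. PDK3 had means of 4.51 ± 1.10 CPM in control cells and 6.57 ± 0.648 with JQ1 without sgRNA (log2 fold change 0.54, edgeR adjusted p = 0.079). PDHA1 and PDHB, subunits of the enzyme itself, gave no call, with group means of 237 to 260 and 62.4 to 70.3 CPM, and PDK2 was too low to read, with log2 differences whose 95% intervals all held 0.

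Lactate leaves the cell through monocarboxylate transporters. SLC16A1, the broadly expressed MCT1, stood at 149, 141 and 167 CPM in control cells, 126, 143 and 138 under JQ1 without sgRNA, 140.2, 125 and 117 under JQ1 plus sgRNA, 146, 120 and 133 with JQ1-FCPF without sgRNA, and 156, 144 and 149 with JQ1-FCPF and sgRNA. The libraries of JQ1 with sgRNA lay below the control without overlap, and the difference did not pass (-0.26 on the log2 scale with bounds of -0.47 and -0.05 at 95%, edgeR adjusted p = 0.0853). SLC16A3, the MCT4 exporter of highly glycolytic cells, stood at 4.14, 3.45 and 4.26 CPM in control cells, 4.46, 4.62 and 4.47 under JQ1 without sgRNA, 3.43, 3.73 and 4.41 under JQ1 plus sgRNA, 3.94, 4.81 and 4.92 with JQ1-FCPF without sgRNA, and 3.53, 4.25 and 4.12 with JQ1-FCPF and sgRNA. At this depth it gave no call.

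Taken by comparison, JQ1 without sgRNA against the control called 1 of 31 members, ALDOC, higher and none lower, where 12.3% of all 15517 tested genes were called, 6.07% higher and 6.23% lower (edgeR, adjusted p under 0.05). At an unadjusted p under 0.05 there were 9 members, SLC2A1, PFKM, ALDOC, ENO2, ENO3, PKM, LDHA, PDK1 and PDK3. Groups did not overlap for 12 of 31 members against 41% of all genes, and the median log2 fold change was -0.09 for the members against 0.00 for all genes. The count depended on the fit: 10 members, 6 higher and 4 lower, were called in a fit of these groups alone, where 31.4% of all genes were, and 9 without the libraries that stood apart, which are in neither group, where 26.9% were. The 9 were those listed at an unadjusted p under 0.05, and the fit of these groups alone added BPGM. The count was 6 without JQ1-FCPF with sgRNA replicate 2 (18.5% of all genes) and 3 without JQ1 with sgRNA replicate 1 (16.7%). It was 2 without JQ1-FCPF with sgRNA replicate 1 (12.5%) or JQ1-FCPF without sgRNA replicate 1 (12.3%) or 2 (10.8%). With DESeq2 it was 3 (13.7%), and with no filter on low counts 4 (4.98% of 39485 genes).

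JQ1 with sgRNA against the control called 4 of 31 members higher (ALDOC, PFKM, ENO2 and PDK1) and 1 lower (SLC2A1), where 14.2% of all genes were called, 7.21% higher and 7.04% lower. Libraries of both groups stayed apart for 12 of 31 members against 34.5% of all genes, and the medians were -0.05 and 0.01. Without control replicate 3, ALDOC alone was called, where 4.59% of all genes were. Without the libraries that stood apart 8 were called, where 22.8% of all genes were, PFKL, PFKFB2 and SLC16A1 joining the 5. With no filter on low counts 7 were called, where 5.85% of 39485 genes were, GAPDH and PKM joining the 5. Both comparisons share the control libraries. The 2 JQ1 groups were also set against each other for the effect of the sgRNA, and 0 of 31 members were called by edgeR, 2 reaching an unadjusted p under 0.05 (PFKL and PFKFB4) and DESeq2 calling 0, where 0.0129% of all genes were called by edgeR. Groups did not overlap for 5 of 31 members against 15.4% of all genes.

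**Figure D4:**
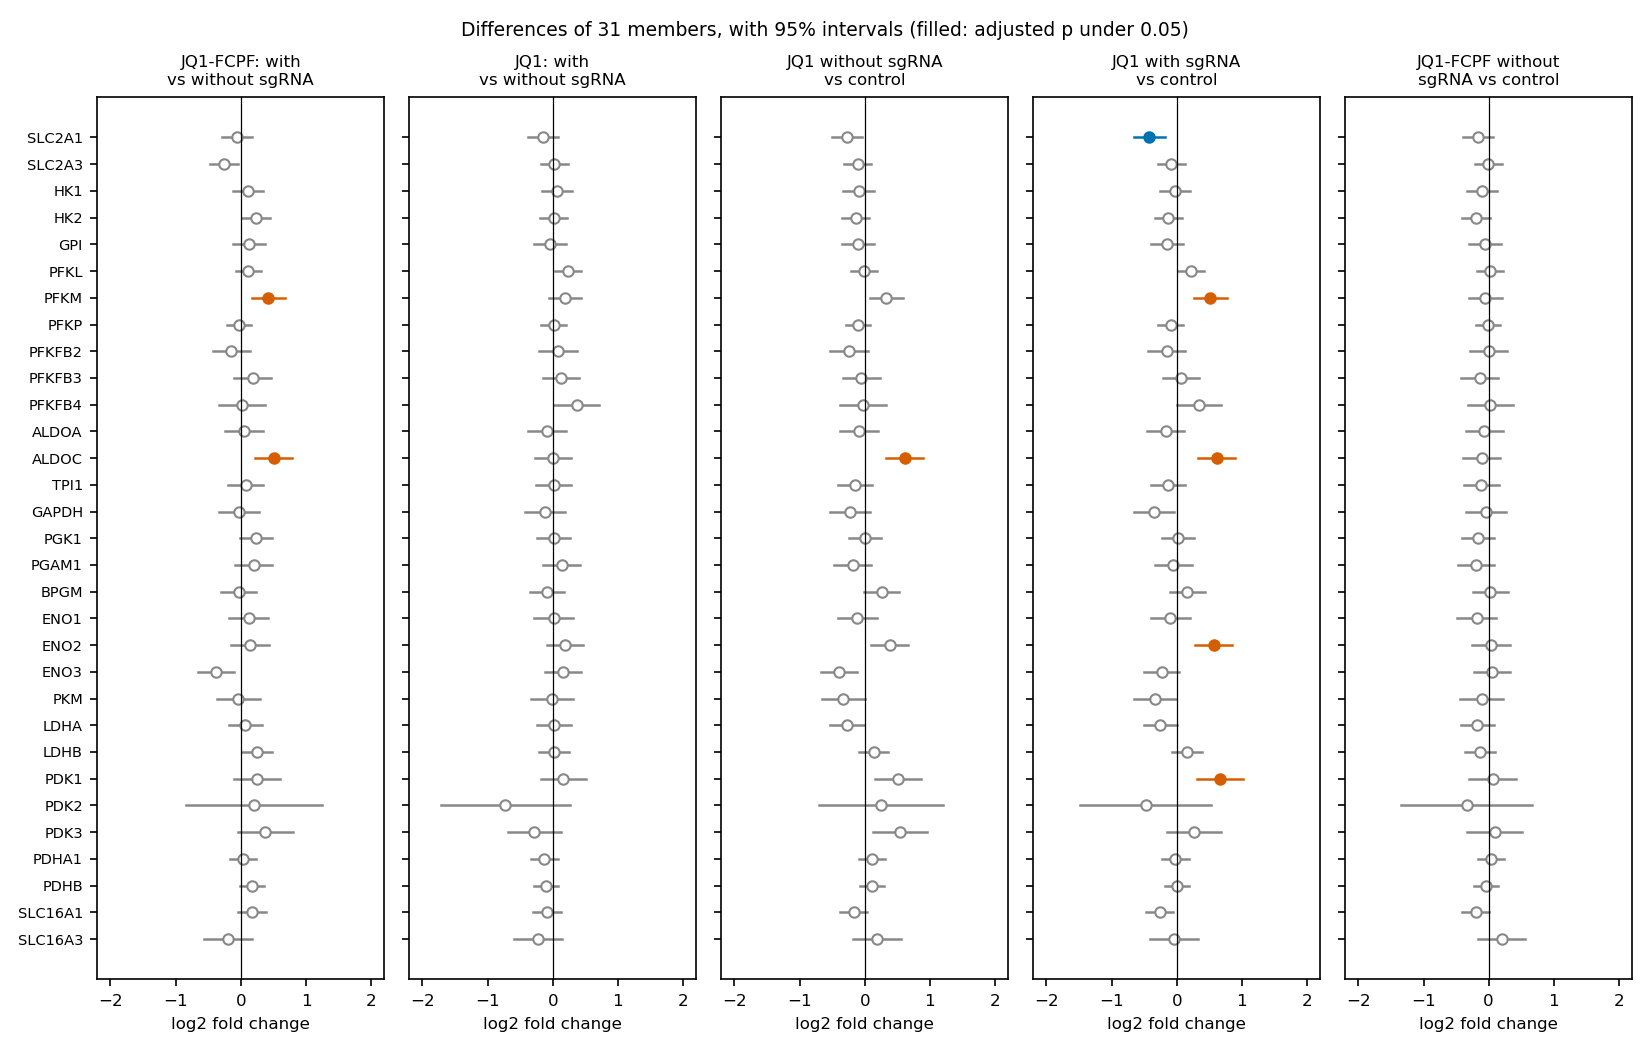
Log2 fold change of the 31 tested members with 95% intervals in 5 comparisons, filled where the edgeR adjusted p was under 0.05 (orange higher, blue lower). Filled points are ALDOC and PFKM for the sgRNA under JQ1-FCPF, ALDOC for JQ1 without sgRNA, and ALDOC, PFKM, ENO2, PDK1 and SLC2A1 for JQ1 with sgRNA, and intervals in the last panel centre near 0.

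JQ1-FCPF with against without sgRNA called 2 of 31 members higher, PFKM and ALDOC, and 0 lower, where 6.25% of all genes were called, 2.06% higher and 4.2% lower. At an unadjusted p under 0.05 there were 6 members, with SLC2A3, HK2, ENO3 and LDHB beside those called. The groups were apart for 5 of 31 members against 22.6% of all genes, and the median log2 fold change was 0.12 for the members against 0.01 for all genes. ALDOC alone was called without both libraries that stood apart, where 10.2% of all genes were. It was also alone without any 1 of the control or JQ1 without sgRNA libraries, and without JQ1 with sgRNA replicate 2 (5.13% to 5.8%). No member was called without JQ1-FCPF with sgRNA replicate 2 (6.05% of all genes) or JQ1-FCPF without sgRNA replicate 2 (3.08%) or 3 (2.69%). Without replicate 1 of the latter 4 were called (7.13%). For the difference between the sgRNA effects under both compounds 0 of 31 members were called, 4 reaching an unadjusted p under 0.05 (ALDOC, ENO3, PDK3 and PDHB) and DESeq2 calling 0, where 0.786% of all genes were called.

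Against the control, JQ1-FCPF without sgRNA called 0 of 31 members by edgeR, 0 reaching an unadjusted p under 0.05 and DESeq2 calling 0, where 0.00644% of all genes were called. Groups did not overlap for 0 members against 7.46% of all genes. JQ1-FCPF with sgRNA called 0 of 31 members, 5 reaching an unadjusted p under 0.05 (SLC2A3, PFKM, ALDOC, ENO3 and PDK3) and DESeq2 calling 0, where 7.21% of all genes were called. Ranges were separate for 3 of 31 members against 25.1% of all genes. PFKM and ALDOC had log2 fold changes of 0.37 and 0.40 (edgeR adjusted p = 0.0691 and 0.0787). Both were called without JQ1 with sgRNA replicate 1 (9.91% of all genes) and without JQ1-FCPF with sgRNA replicate 1 (5.75%). Without JQ1-FCPF with sgRNA replicate 2 their log2 fold changes were 0.19 and 0.23.

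JQ1 and JQ1-FCPF were compared at the same dose and time. Without sgRNA, JQ1-FCPF gave a 1.64-fold lower level of ALDOC than JQ1 (log2 fold change -0.72 ± 0.14; edgeR adjusted p = 0.00732) and a 1.36-fold higher level of ENO3, the 2 of 31 members called, where 7.8% of all genes were, 4.11% higher and 3.69% lower. The call of ALDOC had an adjusted p of 0.0511 without JQ1 without sgRNA replicate 2 and held in 20 of 21 alternatives. Groups did not overlap for 11 of 31 members against 36.2% of all genes, and 7 members had an unadjusted p under 0.05. The count moved with the share of all genes called in the same fit. It was 7 in a fit of these groups alone, where 20.6% of all genes were called, 7 without the libraries that stood apart (22.6% of members and 22.6% of all genes), 5 without JQ1-FCPF with sgRNA replicate 2 (14.5% of all genes), 4 by DESeq2 (10% of all genes) and 0 without JQ1 without sgRNA replicate 2 (0.479% of all genes). It was 3 without JQ1 with sgRNA replicate 1 (12.2% of all genes) or JQ1-FCPF with sgRNA replicate 1 (8.49%). It was 1 (ALDOC) without any 1 of the control libraries or of JQ1 without sgRNA replicates 1 and 3. The same held without any 1 of JQ1 with sgRNA replicates 2 and 3 or JQ1-FCPF without sgRNA replicates 2 and 3. Where it was 1, 0.856% to 7.07% of all genes were called. For the glucose transporters the intervals held 0, with log2 differences between the compounds of 0.10 for SLC2A1 (-0.13 to 0.34) and 0.10 for SLC2A3 (-0.11 to 0.31).

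With sgRNA, JQ1-FCPF and JQ1 differed in 0 of 31 members by edgeR, 3 reaching an unadjusted p under 0.05 (ENO2, PDK1 and SLC16A1) and DESeq2 calling 0, where 2.95% of all genes were called. No overlap was seen for 3 of 31 members against 15.5% of all genes. ENO2 differed by -0.39 (bounds -0.67 and -0.10 at 95%, edgeR adjusted p = 0.126). Without JQ1-FCPF with sgRNA replicate 2 there were 6 members called, PFKM, PFKFB4, ALDOC, GAPDH, ENO2 and PDK1, where 17.4% of all genes were, and 7 without both libraries that stood apart, where 20.2% were.

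Beside the members, 6 lists of related genes were counted, and a few of their genes were called for the sgRNA under JQ1-FCPF. TXNIP, the arrestin that brings glucose transporters into the cell and is known to respond to glucose, rose 3.57-fold, with means of 79.4 ± 8.41 and 284 ± 25.9 CPM (edgeR adjusted p = 3.8e-09). Its relative ARRDC4 rose 2.10-fold. ARRDC2 fell 1.59-fold and MLX, the partner of the glucose-sensing Mondo factors, 1.27-fold, so that 2 of 8 genes on this list rose and 2 fell. Among 17 tested hypoxia genes outside glycolysis BHLHE40 fell 2.77-fold and EGLN3, a HIF hydroxylase, 1.81-fold, while DDIT4 rose 1.43-fold and P4HA1 1.38-fold. PYGL, glycogen phosphorylase, rose 1.41-fold as the 1 of 18 genes of glycogen and hexose phosphate side branches called, and the median log2 fold change of the 18 was 0.27. The PYGL libraries with sgRNA ran from 26.8 to 42.7 CPM (32.5 ± 8.8), against 23 ± 1.26 CPM without sgRNA. None of 9 pentose phosphate genes, of 8 genes of pyruvate entry into mitochondria and of 12 other transporters and isozymes was called there. The calls of these lists come beside the 6.25% of all genes called. Genes of the lists were not followed in the fits that leave out a library.

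TXNIP was at 77.3 ± 3.92 CPM in control cells, 75.7 ± 8.46 with JQ1 without sgRNA and 116 ± 19.2 with JQ1 and sgRNA. BHLHE40 was at 185 ± 5.16 CPM in control cells, 148 ± 4.36 with JQ1 without sgRNA and 95.6 ± 2.52 with JQ1 and sgRNA. For the sgRNA under JQ1, 1 of the 17 hypoxia genes was called lower, where 0.0129% of all genes were called. HIF1A, the hypoxia factor, had group means of 16.1 to 19.5 CPM and gave no call in the 9 comparisons. MYC stood at 197 ± 8.74 CPM in control cells and 59.5 ± 1.95 with JQ1-FCPF and sgRNA, 3.31-fold lower (edgeR adjusted p = 4.37e-08). In that comparison 0 of 31 members and 7.21% of all genes were called. MYC was at 153 ± 9.54 CPM under JQ1 without sgRNA (edgeR adjusted p = 0.0739 against the control) and 168 ± 30.7 under JQ1-FCPF without sgRNA (edgeR adjusted p = 1). Under JQ1 plus sgRNA it was at 128 ± 26.8 CPM (edgeR adjusted p = 0.00486), where 5 of 31 members and 14.2% of all genes were called. Whether the members follow MYC was not tested.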

How the data were processed

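RNA-seq was read from the 15 gene count tables that the authors deposited, 1 per library, as raw whole-number counts with no normalization. Per the labels' protocols RNA was extracted with Trizol and sequenced by a company. Which aligner, counter, genome build and strand setting were used is not given in these sources. Gene identifiers were matched to GENCODE 29 on GRCh38, where 56898 of 57500 were found and 96.1% had the same start and end. Counts were tested with edgeR 4.0.16 in R 4.3.3 (filterByExpr, TMM scaling, 1 mean per group over all 15 libraries, quasi-likelihood test), which kept 15517 genes, and a gene was called at a Benjamini-Hochberg adjusted p under 0.05 over all of them. Levels are CPM from TMM-scaled library sizes, and the biological coefficient of variation was 11.1%. Libraries of 12625669 to 17544518 counts give group means of 3, so small differences of low genes such as PDK2 cannot be resolved. Isozyme shares divide CPM by the exon length given for each whole gene within a family, as descriptions. Promoter windows are from RefSeq, build GRCh38.p14. The scripts were tested on simulated data. Alternatives were DESeq2 1.42.0, its size factors, no filter on low counts, a fit on the groups compared only, a replicate block, each library left out in turn, and both libraries that stood apart left out.

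The members, lists and tests were chosen with earlier results of these data known. By rule, values in every library are given for members called in any of the 9 comparisons and for SLC2A1, SLC2A3, SLC16A1 and SLC16A3, other members by group, and outside the members TXNIP, MYC, HIF1A and up to 4 called genes per list with the smallest p for JQ1-FCPF with against without sgRNA. Library values of GAPDH, PKM, PFKFB4 and the LDHA share, and the levels of PGM2, PKLR, COL1A1, BHLHE40 and PYGL, were added after values were seen.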

Additional observations from a re-analysis of the deposited data

How the results depend on the processing

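Each count of called members was recomputed under 21 alternatives, and no called member reversed. The counts of 0 for the sgRNA under JQ1, for the difference between both sgRNA effects and for JQ1-FCPF without sgRNA against the control were 0 in all 21. Of all genes 0% to 0.203%, 0.315% to 3.25% and 0.00253% to 0.0254% were called in these fits. Leaving out 1 library gave 0 to 4 members for the sgRNA under JQ1-FCPF (2 in the fit of all libraries), where 2.69% to 8.68% of all genes were called. Against the control it gave 1 to 6 for JQ1 without sgRNA (1), with 2.72% to 18.5% of all genes. For JQ1 with sgRNA it gave 1 to 6 (5), with 4.59% to 21.1%, and for JQ1-FCPF with sgRNA 0 to 2 (0), with 3.43% to 9.91%. For JQ1-FCPF against JQ1 it gave 0 to 5 without sgRNA (2), with 0.479% to 14.5%, and 0 to 6 with sgRNA (0), with 0.429% to 17.4%.

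Without both libraries that stood apart the counts were 1, 9, 8, 7 and 7 for the sgRNA under JQ1-FCPF, JQ1 without sgRNA against the control, JQ1 with sgRNA against the control, and JQ1-FCPF against JQ1 without and with sgRNA. Of all genes 10.2%, 26.9%, 22.8%, 22.6% and 20.2% were called there. With only the groups compared in the fit the count was 0 for the sgRNA under JQ1-FCPF (2.43% of all genes). It was 10 for JQ1 without sgRNA against the control (31.4%) and 7 for JQ1-FCPF against JQ1 without sgRNA (20.6%). DESeq2 gave 3 for JQ1 without sgRNA against the control (13.7%) and 4 for JQ1-FCPF against JQ1 without sgRNA (10%). Against the control no filter gave 4 for JQ1 without sgRNA (4.98%), 7 for JQ1 with sgRNA (5.85%) and 1 for JQ1-FCPF with sgRNA (3.26%). The causes were not tested. With the title letter as a replicate block the count was 1 for the sgRNA under JQ1-FCPF (5.37% of all genes). It was 2 for JQ1 without sgRNA against the control (11.2%) and 1 for JQ1-FCPF against JQ1 without sgRNA (7.23%). The letters are not stated to pair samples, and 4 of 30 same-letter pairs of libraries had deviations correlated above 0.1, in a range of -0.24 to 0.31. Over all genes the sgRNA under JQ1-FCPF gave 970 calls, 351 with only its groups in the fit and 1600 without both libraries.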

Other observations

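Genes around glycolysis were called with JQ1 that the comparisons above do not describe. These genes were chosen after their values were seen. Of 18 tested genes of glycogen and hexose phosphate side branches, 6 rose and 1 fell with JQ1 without sgRNA against the control, where 12.3% of all genes were called. PYGL, which breaks down glycogen, rose 1.91-fold (edgeR adjusted p = 0.00106), PHGDH, the first enzyme of serine synthesis from a glycolytic intermediate, 1.70-fold (edgeR adjusted p = 0.0061), and GFPT1, the entry to hexosamine synthesis, 1.43-fold (edgeR adjusted p = 0.0296). PYGB, the brain form of glycogen phosphorylase, fell 1.36-fold (edgeR adjusted p = 0.0062). With JQ1 and sgRNA 5 of the 18 rose and 0 fell, among them PYGL 1.92-fold and PHGDH 1.49-fold, against the same control libraries, where 14.2% of all genes were called, 7.21% higher. With JQ1-FCPF without sgRNA against the control 0 genes of the 6 lists were called, where 0.00644% of all genes were.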
